A study of Mus musculus with 6 samples.

Results

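The 8 genes described here are voltage-gated sodium channel alpha subunits, *Scn1a*, *Scn3a*, *Scn4a*, *Scn7a*, *Scn8a*, *Scn9a*, *Scn10a* and *Scn11a*, chosen by family and not by their values, and all 8 were found by symbol among the 53342 genes of the table. RNA sequencing was carried out on dental pulp of C57BL/6 mice aged 3 months, with 3 WT samples (replicates 2, 4 and 5) and 3 samples of *Mmp13*-/- mice, labelled MMP13KO (replicates 1, 2 and 6). MMP13 is a collagenase that cuts fibrillar collagen, and *Mmp13*-/- mice lack it in every cell rather than in pulp alone. No treatment is named for either genotype. Growth notes in the labels name molars for both genotypes, sample titles name molars for WT only, and the study's methods name incisors, so the tooth could not be settled here and a difference in tooth between genotypes cannot be told apart from genotype. Samples were described as independent biological samples, and whether animals were pooled is not given in the sources used here.

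Sodium channel alpha subunits are large membrane proteins that form the pore through which sodium enters excitable cells, and their opening starts the action potential. Accessory beta subunits, ankyrins and other partners set where the pore protein sits and how fast it opens and closes. In teeth, sensory axons of the trigeminal ganglion run through the pulp to the odontoblast layer and carry pain. Most alpha subunit mRNA of such a neuron lies in the cell body in the ganglion, outside the tooth.

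Estimated counts summed to 28442936 to 29980236 per WT library and to 21561420 to 26547121 per *Mmp13*-/- library. *Mmp13*, the targeted gene, fell from a normalized count of 969 ± 128 to 34.3 ± 27.8 in *Mmp13*-/- samples (SD, n = 3 each; log2 fold change -4.96, edgeR adjusted p = 7.67e-05). *Mmp13*-/- libraries stood apart in composition. Satellite repeat genes took 5.54% to 43.6% of their counts and at most 0.0414% in WT, with the highest share in sample 6. Odorant and vomeronasal receptor genes, which no pulp cell is known to use, summed to 308 to 1196 CPM (counts scaled to library size) in *Mmp13*-/- samples and 17.8 to 20.8 in WT, again with sample 6 highest. The part of these reads in each gene's change was not tested, and the counts below are therefore also given against the receptor-gene rate.

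Markers fixed as a list were set beside the pulp label. All 20 odontoblast and pulp markers were above 3 times the receptor-gene rate in every *Mmp13*-/- sample, with a summed level of 9729 to 11388 in WT and 4696 to 6197 in *Mmp13*-/- samples. A level here is the TMM-scaled CPM of a gene divided by its kilobases of exon. Skeletal muscle markers were also abundant, with a summed level of 22688 to 28161 in WT and 4874 to 11411 in *Mmp13*-/- samples. All 25 of them, and all 26 bone marrow leukocyte markers, also passed the bar of 3 times the receptor-gene rate. That bar therefore cannot tell pulp from other tissue.

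The family lies on 4 chromosomes of the mouse genome (GRCm38, gene bounds from GENCODE M21). *Scn3a* (chr2:65457118-65567627), *Scn1a* (chr2:66270778-66440840), *Scn9a* (chr2:66480080-66634962) and *Scn7a* (chr2:66673425-66784914) lie on the minus strand of chromosome 2. *Scn10a* (chr9:119608456-119719322) and *Scn11a* (chr9:119753759-119825456) are neighbours on the minus strand of chromosome 9. *Scn4a* (chr11:106318592-106353288) is on the minus strand of chromosome 11, and *Scn8a* (chr15:100869858-101045938) on the plus strand of chromosome 15. Union exon lengths ran from 5931 bases in *Scn11a* to 15766 bases in *Scn8a*. Exons of *Scn9a* overlap exons of the antisense gene *Gm13629*, which had no count in WT but 2.32, 4.33 and 4.92 estimated counts in replicates 1, 2 and 6 of *Mmp13*-/-. Because no source states that counting used strand, reads of *Scn9a* and *Gm13629* may be mixed.

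RefSeq promoter sequence was matched for 7 of the 8 genes, with a pair of start sites for *Scn8a*. The 250 bases before the start (GRCm38.p6, read 5′ to 3′ on the gene's strand) are shown for *Scn4a*, the only member that fell, for *Scn7a*, the most abundant member that rose, for *Scn8a*, whose upstream start was the richest in CpG, and for the neighbours *Scn10a* and *Scn11a*. Capitals mark matches on either strand to the E-box CANNTG or the GC box GGGCGG. The TATA box TATAAA was searched as well and had no match in the windows of the family, and overlapping matches were all counted.
Scn4a, chr11:106349391-106349640, minus strand: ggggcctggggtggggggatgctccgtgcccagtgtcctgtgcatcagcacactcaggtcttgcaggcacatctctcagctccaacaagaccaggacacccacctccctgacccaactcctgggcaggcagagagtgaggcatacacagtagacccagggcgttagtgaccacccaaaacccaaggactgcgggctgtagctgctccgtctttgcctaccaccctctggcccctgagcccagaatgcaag
Scn7a, chr2:66784911-66785160, minus strand: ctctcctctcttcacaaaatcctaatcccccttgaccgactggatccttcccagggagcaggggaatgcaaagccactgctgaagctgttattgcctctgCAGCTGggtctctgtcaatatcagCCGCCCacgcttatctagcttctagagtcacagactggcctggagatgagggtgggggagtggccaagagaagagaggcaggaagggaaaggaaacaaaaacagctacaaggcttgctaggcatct
Scn8a, chr15:100870395-100870644, plus strand: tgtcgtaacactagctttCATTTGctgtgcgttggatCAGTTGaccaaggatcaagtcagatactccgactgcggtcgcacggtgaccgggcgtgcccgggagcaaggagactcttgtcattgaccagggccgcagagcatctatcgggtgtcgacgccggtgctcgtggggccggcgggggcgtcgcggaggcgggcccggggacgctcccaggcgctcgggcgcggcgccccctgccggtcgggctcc
Scn10a, chr9:119719033-119719282, minus strand: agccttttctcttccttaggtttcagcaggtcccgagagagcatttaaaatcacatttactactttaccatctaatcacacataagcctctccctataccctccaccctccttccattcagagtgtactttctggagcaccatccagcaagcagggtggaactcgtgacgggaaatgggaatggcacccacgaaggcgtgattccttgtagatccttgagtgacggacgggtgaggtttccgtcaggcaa
Scn11a, chr9:119825457-119825706, minus strand: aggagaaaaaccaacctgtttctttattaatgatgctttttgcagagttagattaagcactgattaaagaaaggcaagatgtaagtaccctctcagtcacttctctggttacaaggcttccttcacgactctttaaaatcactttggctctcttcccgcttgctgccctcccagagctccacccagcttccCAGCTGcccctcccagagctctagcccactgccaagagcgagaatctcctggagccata
CANNTG was matched in 66.2% of all 32851 RefSeq promoters of this length, GGGCGG in 32.7% and TATAAA in 12.4%. The window of *Scn4a* held none of these motifs, and neither did that of *Scn10a*. *Scn7a* had CAGCTG at 150 bases and GGGCGG at 126 bases before the start, and *Scn11a* had CAGCTG at 59 bases. The windows of *Scn4a*, *Scn8a* and *Scn10a* lie inside the GENCODE gene bounds, which reach farther upstream than the RefSeq start. CAGCTG, 1 form of CANNTG, was found in 13% of all promoters. The upstream *Scn8a* start had a GC content of 68% and an observed-to-expected CpG ratio of 1.05, against medians of 52.4% and 0.373 over all promoters. The other windows shown had CpG ratios of 0.170 to 0.527. These matches describe letters in a window, and no binding was measured.

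To ask which alpha subunits differed between genotypes, every gene that passed edgeR's filter on low counts was tested with edgeR's quasi-likelihood test, and a gene was called at an adjusted p under 0.05 and a change over 2-fold. Of the 8 members, 8 passed the filter, 7 were called higher in *Mmp13*-/- pulp and 1, *Scn4a*, lower. *Scn9a*, *Scn10a* and *Scn11a*, with 0 to 4 counts per WT library, passed the filter through the *Mmp13*-/- samples alone and so had to differ. *Scn1a*, with 10 counts or more in only 1 WT library, also needed the *Mmp13*-/- samples to pass, and of the other 4 members 3 were called higher. Over all 24534 genes tested, 20.4% were called higher and 9.68% lower. The normalized counts of the genotypes did not overlap for any of the 8 members, against 31.8% of all genes tested with every *Mmp13*-/- sample above every WT sample and 29.1% with every one below. The median log2 fold change was 2.50 over the 8 members, with *Scn1a*, *Scn9a*, *Scn10a* and *Scn11a* included, and 0.10 over all genes tested. Because those named members needed *Mmp13*-/- samples to pass, the median of 2.50 is no support for a rise of the family. Among all calls, 67.8% were higher in *Mmp13*-/- samples, and this share was 81.4% with upper-quartile factors and 84.3% with a GC correction. In bulk tissue, fewer cells of a type and less RNA per cell cannot be told apart.

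**Figure D1:**
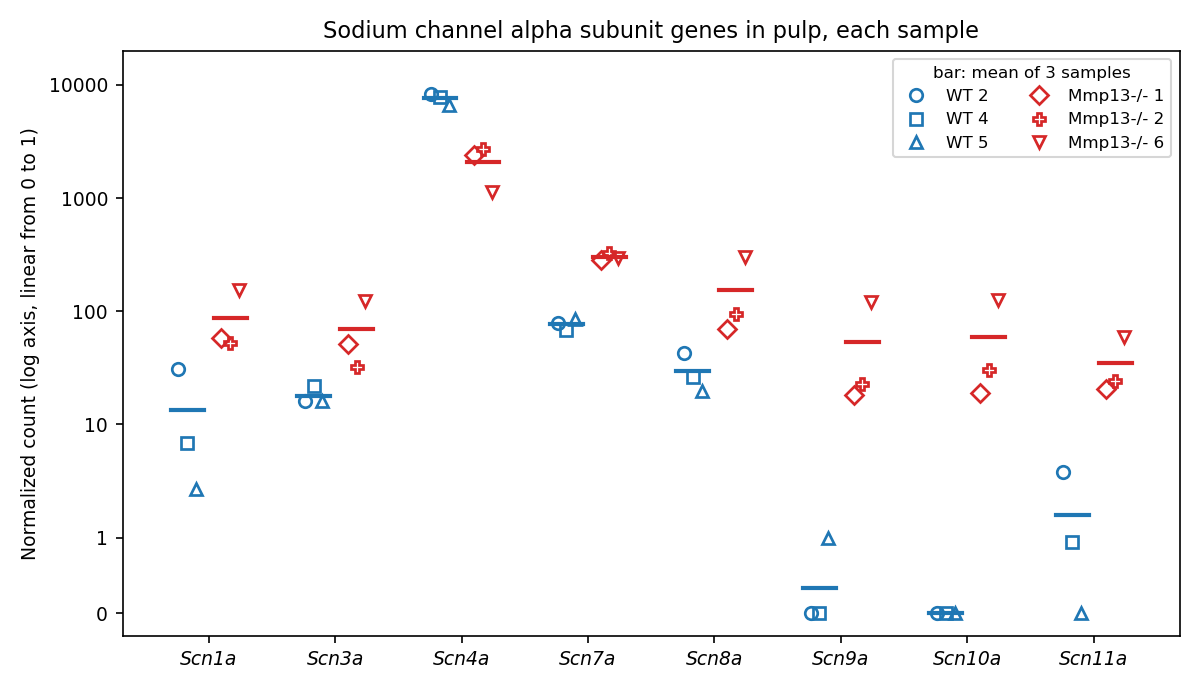
Normalized counts of the 8 alpha subunit genes in each sample, on an axis that is logarithmic above 1 and linear from 0 to 1; symbols are single samples, blue for WT and red for *Mmp13*-/-, and bars are means of 3 samples. *Scn4a* is the only gene with WT above *Mmp13*-/-, *Scn10a* is at 0 in the 3 WT samples, and *Mmp13*-/- sample 6 is the highest of its group for 6 genes.

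*Scn4a* encodes Nav1.4, the channel that fires the action potential of skeletal muscle fibres, and it was the most abundant member by far. Its normalized counts were 8246, 7795 and 6675 in WT (samples 2, 4 and 5) against 2383, 2704 and 1133 in *Mmp13*-/- pulp (samples 1, 2 and 6). The groups did not overlap, *Mmp13*-/- samples were the lower ones, and sample 6 was the lowest of all. The mean fell from 7572 ± 809 to 2073 ± 830 (SD, n = 3 each), a log2 fold change of -1.87 ± 0.29 (SE, edgeR adjusted p = 0.000640) or 3.65-fold lower. Its counts were 259, 239 and 21.2 times those expected at the receptor-gene rate in *Mmp13*-/- samples 1, 2 and 6. The log2 fold change stayed between -2.16 and -1.21 over 17 alternatives, all past the threshold on p.

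Among all genes, the profiles closest to *Scn4a* were those of muscle genes. The nearest profiles to *Scn4a* over the 6 samples, by root mean square difference in centred log2 CPM among 16451 named genes, were *Jph1* (0.0643) and *Cacna1s* (0.0646). *Jph1* holds the muscle membrane systems together at the triad, and *Cacna1s* encodes the muscle calcium channel and voltage sensor. Relative to its own WT mean, *Scn4a* was at 31.5%, 35.7% and 15.0% in *Mmp13*-/- samples 1, 2 and 6, and *Cacna1s* was at 29.7%, 32.8% and 15.1%. *Ckm*, muscle creatine kinase, was at 35.1%, 36.6% and 15.4%, and *Acta1*, skeletal actin, at 32.9%, 33.4% and 15.3%. For each of these genes sample 6 was the lowest and samples 1 and 2 were close together. Of 25 skeletal muscle markers tested, 16 were called lower and 0 higher with edgeR, against 9.68% and 20.4% of all genes tested. Their median log2 fold change was -1.33, against 0.10 over all genes. At an adjusted p under 0.05 with any fold, 18 were lower and 0 higher, against 24.3% and 27.3% of all genes tested. With a GC correction 9 were called, all lower, against 3.03% of all genes. *Myh4*, a fast myosin heavy chain, had the lowest log2 fold change of this list (-2.21, and -2.86 without *Mmp13*-/- sample 2), followed by *Ryr1*, the calcium release channel (-2.06). How far the change of *Scn4a* followed the amount of muscle in each sample was not tested.

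**Figure D2:**
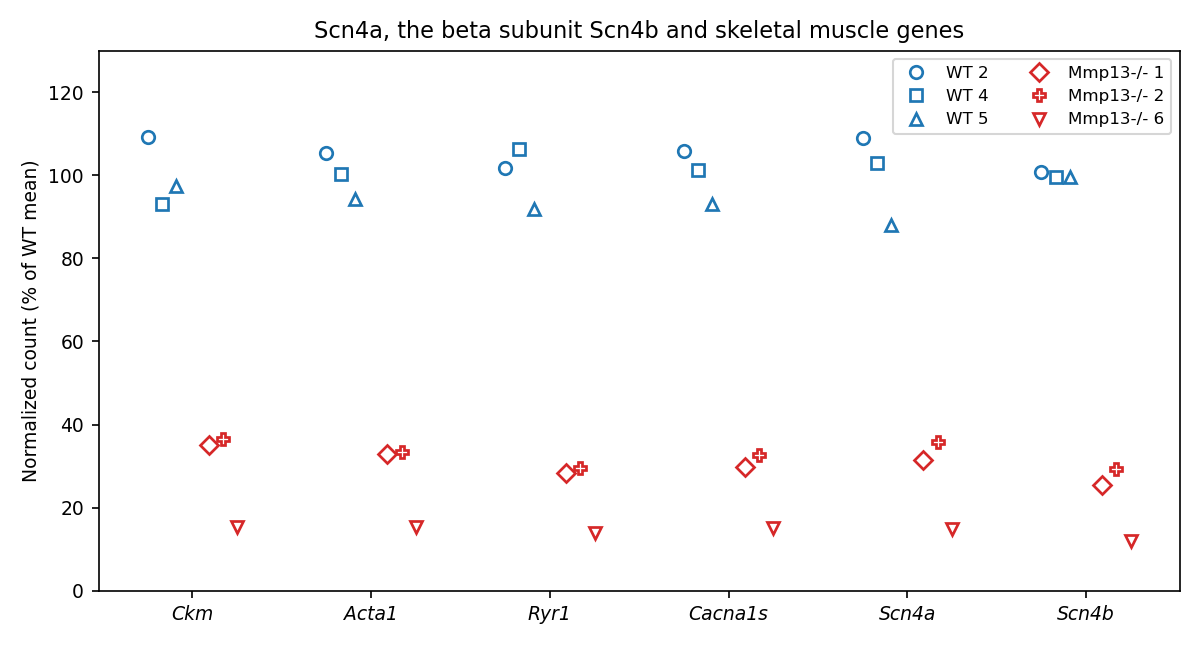
Normalized counts of *Scn4a*, of the beta subunit *Scn4b* and of 4 skeletal muscle genes as a percentage of each gene's WT mean, with 1 symbol per sample (blue WT, red *Mmp13*-/-). In every gene the *Mmp13*-/- samples lie at 36.6% or less, with sample 6 the lowest at 12% to 15.4%.

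*Scn7a* encodes Nax, a relative of the voltage-gated channels that responds to the sodium concentration and is found in glia, Schwann cells and some neurons. Its normalized counts were 79.3, 67.9 and 85.3 in WT (samples 2, 4 and 5) against 285, 328 and 293 in *Mmp13*-/- pulp (samples 1, 2 and 6). The *Mmp13*-/- samples lay close together, and *Scn7a* was the member with the smallest spread relative to its mean in that genotype. The mean rose from 77.5 ± 8.84 to 302 ± 23.1 (SD, n = 3 each), a log2 fold change of 1.97 ± 0.18 (SE, edgeR adjusted p = 7.24e-05). Its counts were 29.7, 27.9 and 5.25 times those expected at the receptor-gene rate in *Mmp13*-/- samples 1, 2 and 6, the highest ratios among the genes that rose, and no receptor gene reached its count per kilobase in these samples. The log2 fold change was 1.23 with a GC correction and 2.01 after background subtraction, and all 17 alternatives kept it past the threshold on p.

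*Scn8a* encodes Nav1.6, the main channel at nodes of Ranvier in myelinated axons. Normalized counts were 42.3, 26.2 and 19.9 in WT (samples 2, 4 and 5) against 69.3, 93.6 and 301 in *Mmp13*-/- pulp (samples 1, 2 and 6). Groups did not overlap, and sample 6 was far above the other *Mmp13*-/- samples. The log2 fold change was 2.35 ± 0.55 (SE, edgeR adjusted p = 0.00535), and without sample 6 it was 1.45 (adjusted p = 0.00911). Counts were 3.37, 3.70 and 2.51 times those expected at the receptor-gene rate in samples 1, 2 and 6. At most 3.79% of the 1451 receptor genes were at or above *Scn8a* per kilobase in an *Mmp13*-/- sample.

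*Scn1a* encodes Nav1.1, found in inhibitory neurons and in large sensory neurons. Normalized counts were 31.1, 6.83 and 2.68 in WT (samples 2, 4 and 5) against 58.2, 52.5 and 153 in *Mmp13*-/- pulp (samples 1, 2 and 6). WT sample 2 was far above the other WT samples, and sample 6 was the highest of its group. The log2 fold change was 2.65 ± 0.72 (SE, edgeR adjusted p = 0.0117). It was 4.04 without WT sample 2, 2.01 without *Mmp13*-/- sample 6 and 2.27 without WT sample 4, with adjusted p-values of 0.00114, 0.0405 and 0.050, of which the last lay just under the threshold. Because *Scn1a* needed *Mmp13*-/- samples to pass the filter on low counts, its p-values are not independent support for a difference. *Scn1a* counts were 4.0, 2.93 and 1.80 times those expected at the receptor-gene rate in samples 1, 2 and 6.

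*Scn3a* encodes Nav1.3, a channel of the embryonic nervous system that returns in injured sensory neurons. Normalized counts were 16, 21.7 and 16 in WT (samples 2, 4 and 5) against 51.5, 32.3 and 124 in *Mmp13*-/- pulp (samples 1, 2 and 6). Every *Mmp13*-/- sample was above every WT sample, with sample 6 the highest. The log2 fold change was 1.91 ± 0.50 (SE, edgeR adjusted p = 0.0101), and 1.22 without sample 6 (adjusted p = 0.0237). Counts were 3.16, 1.62 and 1.31 times those expected at the receptor-gene rate, and in sample 6, 31.4% of receptor genes were at or above *Scn3a* per kilobase. The call of *Scn3a* depended on processing. After background subtraction the log2 fold change was 0.74 (adjusted p = 0.241), and with a GC correction it was 1.48 (adjusted p = 0.0887).

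The last group holds *Scn9a*, *Scn10a* and *Scn11a*, which encode Nav1.7, Nav1.8 and Nav1.9 and are used by pain-sensing neurons. Nav1.7 amplifies small depolarizations and sets the threshold for pain, Nav1.8 resists tetrodotoxin and carries most of the nociceptor spike, and Nav1.9 passes a persistent current near rest. In WT pulp these genes were at or near 0. Since they passed the filter on low counts through *Mmp13*-/- samples alone, their adjusted p-values below are no support for a difference.

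*Scn10a* had 0 counts in each WT sample, which allows up to 0.105 CPM at 3 counts in a library, and this floor covers counting error only. Its normalized counts were 19.1, 30.2 and 127 in *Mmp13*-/- samples 1, 2 and 6, from estimated counts of 22.0, 33.0 and 80.0. Against the floor of 3 counts per WT library it was at least 20.4-fold higher in *Mmp13*-/- samples, and at least 8.55-fold higher when sample 6 was left out. With all samples the edgeR adjusted p was 0.00153, and it ranged from 5.94e-15 to 0.0103 over 16 alternatives. Those p-values are no support, because *Scn10a* entered the test only through its *Mmp13*-/- counts. The fitted log2 fold change, which is no bound, was 8.84, and 7.73 without sample 6. *Scn10a* counts were 1.84, 2.36 and 2.09 times those expected at the receptor-gene rate, and in samples 1, 2 and 6, 17.6%, 9.37% and 6.20% of receptor genes were at or above it per kilobase. From sample 1 to sample 6 its count went up by a ratio of 3.64, while the receptor-gene rate went up by 3.19 and the library totals stood in a ratio of 0.82. The genes nearest to *Scn10a* in profile were *Apob* (root mean square difference 0.0895), which encodes the main protein of low-density lipoprotein, and *Vmn1r174* (0.0926), which is itself a vomeronasal receptor. *Scn10a* is also in the study's list of its most increased genes, which was chosen on these samples, so its direction here is not independent evidence.

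*Scn9a* had normalized counts of 0, 0 and 1.0 in WT (samples 2, 4 and 5) against 18.1, 22.8 and 120 in *Mmp13*-/- pulp (samples 1, 2 and 6). With 1 WT count against 122 in *Mmp13*-/- samples, the ratio per library size was 132, with a 95% counting interval of 23.3 to 5274 (edgeR adjusted p = 0.00118). That interval pools the reads of each genotype, so it covers counting error only and not the spread between samples. *Scn9a* lay at the receptor-gene rate itself, at 1.09, 1.11 and 1.24 times the expected count in samples 1, 2 and 6. In these samples 34.8% to 40.7% of receptor genes were at or above it per kilobase. Its count rose by a ratio of 3.64 from sample 1 to sample 6, beside 3.19 for the receptor-gene rate. The fitted log2 fold change, which depends on the prior count, was 6.88, with 5.56 without *Mmp13*-/- sample 6 and 8.67 without WT sample 5. After background subtraction *Scn9a* no longer passed the filter on low counts.

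*Scn11a* had normalized counts of 3.78, 0.94 and 0 in WT (samples 2, 4 and 5) against 20.4, 24.0 and 59.4 in *Mmp13*-/- pulp (samples 1, 2 and 6). The groups did not overlap, and the log2 fold change was 4.31 ± 0.88 (SE, edgeR adjusted p = 0.00272). Leaving out WT sample 2 gave 5.74, leaving out WT sample 5 gave 3.70, and leaving out *Mmp13*-/- sample 6 gave 3.68. *Scn11a* was 2.63, 2.53 and 1.32 times the count expected at the receptor-gene rate in samples 1, 2 and 6, and 31.2% of receptor genes were at or above it in sample 6. Its count rose by a ratio of 1.60 from sample 1 to sample 6, less than the receptor-gene rate.

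**Figure D3:**
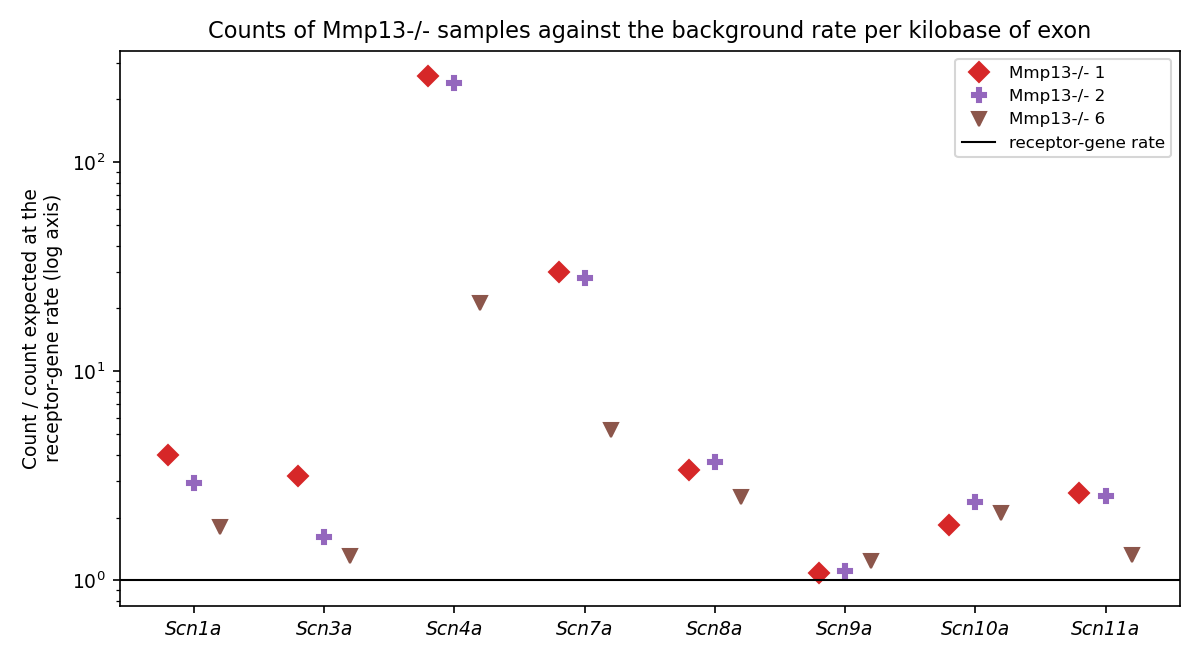
Estimated counts of the 8 genes in *Mmp13*-/- samples 1, 2 and 6, divided by the count expected if each gene's exons drew reads at the rate of odorant and vomeronasal receptor genes (log axis; the line at 1 is that rate). *Scn4a* and *Scn7a* lie at 5.25 or more in every sample, *Scn9a* lies at 1.09 to 1.24, and the other genes lie at 1.31 to 4.0.

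The same values were set beside the rate in WT, where the receptor genes gave 0.0947 to 0.116 counts per kilobase. In *Mmp13*-/- samples 1, 2 and 6 the rate was 1.5, 1.76 and 4.80. *Scn1a*, *Scn3a*, *Scn7a* and *Scn8a* were above this rate in all 6 samples, with WT ratios of 2.54 or more. When the rate was subtracted from every gene, 5 of the 7 members tested were called higher (*Scn1a*, *Scn7a*, *Scn8a*, *Scn10a* and *Scn11a*), against 16.2% of all genes tested, and *Scn4a* was called lower, against 8.44%. With a GC correction alone 6 members were called higher, against 16.3% of genes, and *Scn4a* lower, against 3.03%. With both corrections 4 were called higher (*Scn7a*, *Scn8a*, *Scn10a* and *Scn11a*), against 11.2%, and *Scn4a* lower, against 4.03%. Calls of *Scn9a*, *Scn10a* and *Scn11a* add no weight beside these shares, because these genes pass the filter only through *Mmp13*-/- samples. *Scn1a* also needed those samples to pass. *Scn7a* and *Scn8a*, which also passed through their WT counts, were called higher in each of these settings.

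**Figure D4:**
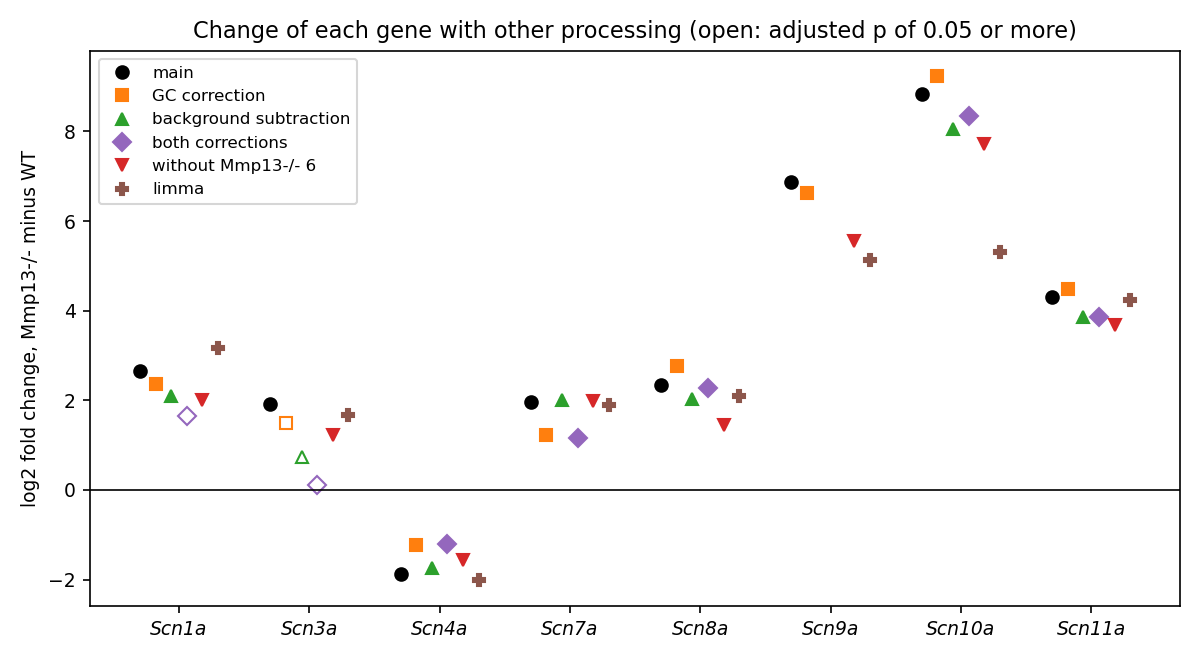
Log2 fold change (*Mmp13*-/- minus WT) of each gene as reported (main) and in 5 alternatives; filled symbols have an adjusted p under 0.05 and open symbols do not, and *Scn9a* has no value where it failed the filter. *Scn4a* is below 0 and *Scn7a*, *Scn8a*, *Scn10a* and *Scn11a* are above 0 and filled in each setting shown, while *Scn3a* falls to 0.11 with both corrections. *Scn10a* and *Scn11a* entered these fits through *Mmp13*-/- samples alone. Fitted values of *Scn9a* and *Scn10a* depend on the prior count.

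Levels per kilobase were compared between the members within each genotype. In WT pulp *Scn4a* stood at 39.3 ± 4.2 (SD, n = 3), followed by *Scn7a* at 0.386 ± 0.0440, *Scn8a* at 0.0683 ± 0.0268, *Scn3a* at 0.0526 ± 0.00960 and *Scn1a* at 0.0444 ± 0.0503. *Scn11a* (0.00969 ± 0.0121), *Scn9a* (0.000952 ± 0.00165) and *Scn10a* (0) came last. *Scn4a* exceeded *Scn7a*, and *Scn7a* exceeded *Scn8a*, in all samples, while every later pair of neighbours overlapped.

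In *Mmp13*-/- pulp *Scn4a* was again first, at a level of 10.8 ± 4.31 (SD, n = 3), and *Scn7a* again followed, at 1.5 ± 0.115. *Scn8a* stood at 0.359 ± 0.295 and *Scn1a* at 0.288 ± 0.185. *Scn10a* (0.269 ± 0.272), *Scn11a* (0.213 ± 0.133), *Scn3a* (0.203 ± 0.142) and *Scn9a* (0.154 ± 0.165) did not separate from their neighbours. *Scn3a* was above *Scn9a* in each of the 3 samples taken singly, although their ranges overlapped. Overlap of neighbours says nothing of genes farther apart in the order. In WT, for example, every *Scn8a* and *Scn3a* level was above the highest level of *Scn11a* (0.0233).

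*Scn4a* made up 98.5% to 98.8% of the summed level of the family in WT, against 85.0%, 85.0% and 57.7% in *Mmp13*-/- samples 1, 2 and 6. Without *Scn4a* the summed level ran from 0.491 to 0.666 in WT but reached 2.19, 2.47 and 4.31 in *Mmp13*-/- samples. *Scn7a* held 33.8% of this remainder in sample 6 and 59.4% to 80.2% in each of the other 5 samples.

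Profiles nearest to the other members were named by the same measure, and they carry no test. *Irf4*, a lymphocyte transcription factor, and *Rps14*, a ribosomal protein, were nearest to *Scn7a* (0.0761 and 0.0774). *Pcdh8* and *Gria2* were nearest to *Scn8a* (0.150 each), *Insl6* (0.147) and *Car10* (0.169) to *Scn3a*, and *Ccdc110* (0.348) to *Scn1a*. For *Scn9a* they were *Themis* (0.287) and *Nrg3* (0.296), and for *Scn11a* *Cacng2* (0.309) and *Folr1* (0.329). The smallest differences, those of *Scn4a*, *Scn7a* and *Scn10a*, were under 0.1 and those of *Scn1a* and *Scn11a* were over 0.3.

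Partner genes of the channel were called in both directions. Of 24 partners tested (beta subunits, fibroblast growth factor homologous factors, ankyrins, spectrins, node proteins, trafficking proteins and the sodium leak channel complex), 5 were called higher and 6 lower with edgeR, with a median log2 fold change of -0.24. Over all genes tested 20.4% were called higher, near the share of the partners, and 9.68% lower. At any fold 6 were higher and 11 lower, beside 27.3% and 24.3% of all genes. The summed level of the list was 338 to 374 in WT and 130 to 168 in *Mmp13*-/- samples, and 16 of the 24 were above 3 times the receptor-gene rate in every *Mmp13*-/- sample.

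Beta subunits moved in both directions. *Scn4b* went from 8478 ± 50.4 to 1886 ± 771 normalized counts (SD, n = 3 each), a log2 fold change of -2.17 ± 0.29 (SE, edgeR adjusted p = 0.000309). *Scn4b* was near *Scn4a* in size of change and in the order of the samples, with sample 6 the lowest. *Scn3b*, a neuronal beta subunit, rose (log2 fold change 1.97), with normalized counts of 24.4, 38.0 and 111 in *Mmp13*-/- samples 1, 2 and 6 and a change of 1.12 without sample 6, and its call was lost with both corrections (1.66, edgeR adjusted p = 0.0726). *Scn2b* was at 149 ± 34.1 in WT and 118 ± 17 in *Mmp13*-/- samples (SD, n = 3 each) and was not called.

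*Nrcam*, an adhesion molecule of nodes of Ranvier, had the largest rise among partners (log2 fold change 2.30, edgeR adjusted p = 0.000916). Other calls of the list, named after their values were seen, were *Fgf14* (log2 fold change 2.05), *Cntn1* (1.89) and *S100a10* (1.80) among those that rose and *Tmem233* (-1.77), *Cntnap1* (-1.07) and *Fgf13* (-1.07) among those that fell. The call of *Cntn1* was lost without WT sample 4, WT sample 5 or *Mmp13*-/- sample 6 (log2 fold change 1.71, 1.55 and 1.10, edgeR adjusted p = 0.0733, 0.0610 and 0.0655) and with background subtraction (1.06), a GC correction (1.64) or both (0.64). *Cntnap1* and *Fgf13* fell under 2-fold with upper-quartile factors (-0.85 and -0.86), total counts (-0.97 and -0.95) or at least 10 counts in every sample (-0.94 each), and *Cntnap1* also with a GC correction (-0.27) or both corrections (-0.36). *S100a10* carries Nav1.8 to the cell surface, and *Cntn1* and *Cntnap1* form the axonal junction beside the node.

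Markers of the cells that could hold these transcripts were counted in the same fit. Of 32 sensory neuron and axon markers 29 were tested, and 10 were called higher and 1 lower, against 20.4% and 9.68% of all genes tested. *Elavl4* and *Nefm*, with 0 to 2 counts per WT library, passed the filter through *Mmp13*-/- samples alone. The median log2 fold change of the list was 0.52. The summed level of the list overlapped between genotypes, at 33.5 to 40.1 in WT and 30.3 to 38.8 in *Mmp13*-/- samples. *Mrgprd*, *Nefl* and *Tlx3* did not pass the filter, and 17 of the 32 were above 3 times the receptor-gene rate in every *Mmp13*-/- sample. *Trpa1*, an irritant-gated channel of nociceptors, rose from 9.89 ± 6.99 to 69.9 ± 14.7 normalized counts (SD, n = 3 each), and *Avil*, an actin-binding protein of sensory neurons, fell from 348 ± 43.7 to 133 ± 16. The call of *Avil*, the only lower one, was lost with a GC correction (log2 fold change -0.69 instead of -1.38) and with both corrections (-0.78). *Nefm*, a neurofilament, rose (log2 fold change 5.56), and *Elavl4*, a neuronal RNA-binding protein, had 0 counts in each WT sample and 32.4 ± 24.0 normalized counts (SD, n = 3) in *Mmp13*-/- samples. Without WT sample 2 the log2 fold change of *Trpa1* was 3.48 instead of 2.80, and that of *Nefm* ran from 4.92 to 6.36 when 1 sample was left out, lowest without *Mmp13*-/- sample 6 and highest without WT sample 5. The count of 11 calls in this list was 7 without WT sample 4 and also 7 after background subtraction, so it depended on that sample and on that choice.

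Of 20 Schwann cell markers tested 1 was called higher and 1 lower, against 20.4% and 9.68% of all genes tested. Their median log2 fold change was -0.30. *Cdh19*, an adhesion molecule of the Schwann cell lineage, rose from 20.6 ± 2.65 to 122 ± 25.7 normalized counts (SD, n = 3 each; log2 fold change 2.54, edgeR adjusted p = 0.000151). *Prx*, a protein of peripheral myelin, fell (log2 fold change -1.42, edgeR adjusted p = 0.0139) with a WT spread of 828 ± 602 (SD, n = 3), and its log2 fold change was -0.68 without WT sample 4 and -0.48 with a GC correction, neither of which was called. The summed level was 63.0 to 146 in WT, with sample 4 the highest, and 64.8 to 72.6 in *Mmp13*-/- samples. The 2 calls became 6 without WT sample 2, 4 without WT sample 5, 4 without *Mmp13*-/- sample 2, 3 without *Mmp13*-/- sample 6 and 1 without WT sample 4.

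Of 20 odontoblast and pulp markers tested 5 were called higher and 4 lower, against 20.4% and 9.68% of all genes tested. The share called higher was near that of all genes, and the median log2 fold change was -0.29. *Col1a1*, the main collagen of dentin, fell (log2 fold change -2.16) and so did *Col1a2* (-1.26, and -0.49 with a GC correction, edgeR adjusted p = 0.145), while *Spp1* (3.53) and *Mepe* (2.35), phosphoproteins of mineralized matrix, rose. Of 26 bone marrow leukocyte and blood markers tested 20 were called higher and 0 lower with edgeR, against 20.4% and 9.68% of all genes tested. Their median log2 fold change was 1.85. At an adjusted p under 0.05 with any fold 22 were higher and 0 lower, beside 27.3% and 24.3% of all genes. Their summed level was 654 to 1089 in WT and 2021 to 4379 in *Mmp13*-/- samples, and *S100a9* (5.19), *S100a8* (4.90) and *Hbb-bt* (2.76) led the list by log2 fold change or count. These lists moved with genotype beside the alpha subunits, and their part in the change of the alpha subunits was not tested.

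**Figure D5:**
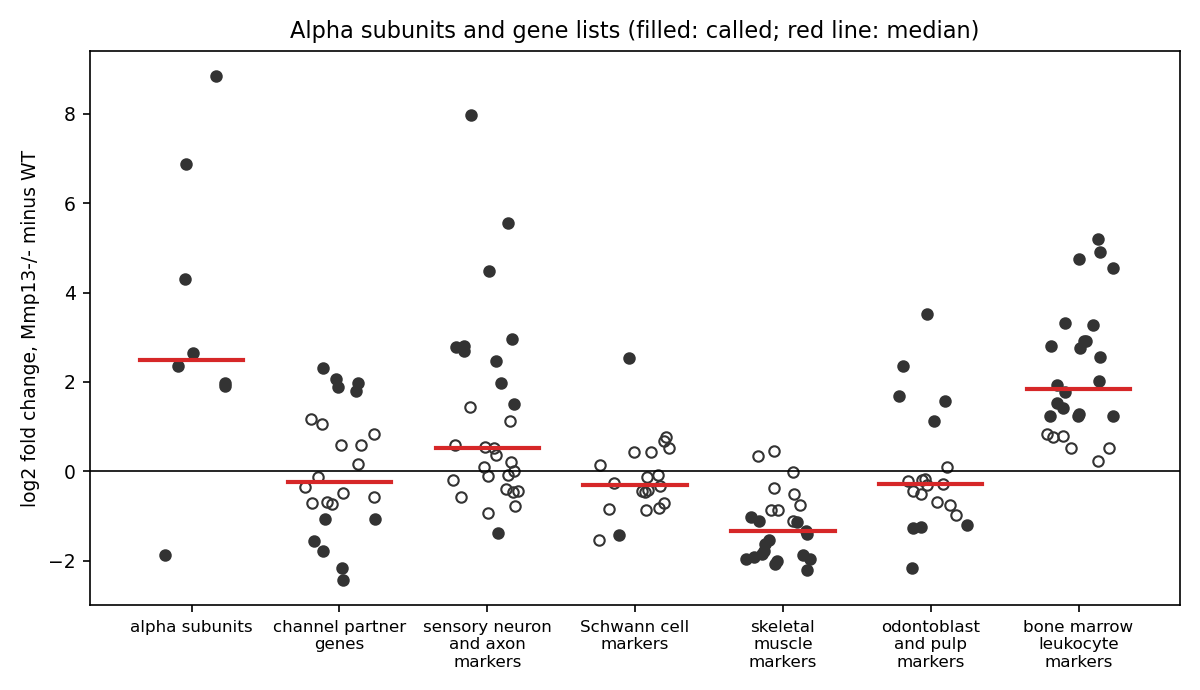
Log2 fold change (*Mmp13*-/- minus WT) of each tested gene, for the 8 alpha subunits and the 6 lists; filled symbols are called (adjusted p under 0.05 and over 2-fold), open symbols are not, and red lines are medians. The alpha subunits have a median of 2.50, leukocyte markers 1.85, sensory markers 0.52 and muscle markers -1.33. The median of the alpha subunits includes *Scn1a*, *Scn9a*, *Scn10a* and *Scn11a*, which needed *Mmp13*-/- samples to pass the filter on low counts. It is therefore no support for a rise of the family. Fitted values of *Scn10a* and *Elavl4*, which have 0 counts in WT, depend on the prior count.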

How the data were processed

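RNA-seq of 3 WT and 3 *Mmp13*-/- pulp samples was analysed from 1 table of 53342 genes. Its estimated counts were obtained by the authors with Strand NGS from paired-end reads, with RNA extracted by TRIzol per the study's methods and by an RNeasy kit per the labels. Normalized log2 values in the same table were deposited by the authors, and the submitters' processing notes name mm10 and DESeq. The aligner settings, annotation release and strandedness are not given in the sources used here. Differences from genes that share reads, such as the related alpha subunits, cannot be separated where the authors' counting split them.

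Rounded counts went into edgeR 4.0.16 under R 4.3.3 (quasi-likelihood test, TMM factors, filter by genotype, no covariates, Benjamini-Hochberg adjustment over all genes tested). Alternatives used DESeq2 1.42.0, limma 3.58.1 on the deposited log2 values, other scaling factors, other filters, loess correction for GC content, background subtraction and leaving out each sample. Normalized counts are the share of the TMM-scaled library times the mean effective library of 27356696, and levels divide these by exon length from GENCODE M21, matched for 99.8% of genes. The background rate is counts per kilobase over 1451 odorant and vomeronasal receptor genes. Satellite genes are 12 genes whose transcripts repeat with a period of 234 bases. The fitting code was also run on simulated counts, and the outcome is not reported here. No 2 samples held identical values, and p-values rest on 3 samples against 3.

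Members, lists and tests were chosen with earlier results of these data known. Named genes are the 8 members, *Mmp13*, the 2 genes nearest to each member in profile, and per list the called genes with the highest mean counts and the largest changes, at most 4. *Scn2b*, *Scn3b*, other called partners, and the muscle genes *Ckm*, *Acta1* and *Cacna1s* set beside *Scn4a* were named outside this rule. *Itgam*, whose symbol names 2 rows, was left out of the leukocyte list. Some genes that the rule names are not reported here. Protein sequences were not used here.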

Additional observations from a re-analysis of the deposited data

How the results depend on the processing

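The count of alpha subunits called higher was 7, and it was 3 of the 4 tested when at least 10 counts were required in every sample and 4 of the 7 tested with GC correction and background subtraction together. In the first 4 members failed the filter, and in the second *Scn9a* failed it while *Scn1a* and *Scn3a* were tested and not called. The count in the second still includes *Scn10a* and *Scn11a*, which passed the filter through *Mmp13*-/- samples alone. The count of higher calls was within 1.5 times 7 in the 15 other settings. The single lower call, *Scn4a*, was made in all 17. Leaving out 1 sample at a time gave 7 to 7 higher calls, 1 to 1 lower, 10 to 12 partner genes called and a log2 fold change of *Mmp13* of -5.65 to -4.50. No member reversed its direction. *Scn3a* lost its call with GC correction, background subtraction and both together (log2 fold change 0.11, adjusted p = 0.888), and *Scn1a* with both together (1.66, adjusted p = 0.136). The cause was not tested. Upper-quartile factors shifted the median change over all genes by 0.21 on the log2 scale, total counts by 0.12, GC correction by 0.21 and both corrections by 0.11. Sensory markers called numbered 2 when at least 10 counts were required in every sample and 5 with both corrections, and odontoblast markers 5 with GC correction. By the length of the longest transcript, chosen after seeing the data, the WT level of *Scn3a* was 0.0685. No paired analysis was possible because the genotypes share only replicate number 2. Depth limits *Scn9a*, *Scn10a* and *Scn11a*, which had at most 4 counts in any WT library.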
